A study of Mus musculus with 60 samples.

Results

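Expression of 10 genes of antigen presentation by the major histocompatibility complex (MHC) is described in the kidneys of mice with and without the clock gene Bmal1 in the renal tubule. They were chosen by name as H2-Aa, H2-Ab1, H2-Eb1, Cd74, H2-DMa, H2-DMb1, Ciita, H2-K1, H2-D1, and B2m, and all 10 were found by symbol among the 55335 genes of the count tables. The choice of these genes, and of the lists of other genes used below, was made with earlier results of these data known. All 10 passed the filter on low values of at least 1 CPM, a count scaled to a fixed library total, in at least 1 sample, which retained 15546 genes. RNA from the kidneys of 60 male mice on the C57BL/6J background had been sequenced, 5 per genotype and time point, at 6 times 4 h apart (ZT0, ZT4, ZT8, ZT12, ZT16, and ZT20, where ZT0 is lights on). The cKOt mice carried Bmal1lox/lox, Pax8-rtTA, and LC-1 Cre, and the control mice were their littermates with Bmal1lox/lox alone, so that the floxed alleles were common to both. Both genotypes had received doxycycline (2 mg/ml in drinking water with 20 mg/ml sucrose) for 2 weeks from the age of 8 weeks, and kidneys were taken 4 weeks later. The Pax8 promoter drives the doxycycline-dependent activator in the cells of the renal tubule, and other cells of the kidney are not the target of the deletion.

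MHC class II molecules are pairs of an alpha and a beta chain that show peptides from endocytosed proteins to CD4 T cells, and they are made chiefly by dendritic cells, macrophages, and B cells. Cd74, the invariant chain, escorts them to endosomes, where the H2-DM pair exchanges its remnant for peptide, and Ciita is the transactivator without which class II genes are not transcribed. MHC class I molecules, a heavy chain with beta-2 microglobulin (B2m), show peptides from the cytosol to CD8 T cells and are made by nearly all nucleated cells. In the kidney, class II transcripts are known chiefly from resident macrophages and dendritic cells, whereas tubule cells acquire them mainly under interferon gamma.

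The labels give the tissue as renal tubule, whereas the methods of the study describe pieces of whole kidney. Markers of proximal tubule summed to 10200 CPM in control mice, those of podocytes to 304.4 CPM, those of endothelium to 295.4 CPM, and the 5 pan-leukocyte markers to 43.2 CPM, so that cells outside the tubule were present. Between 17791420 and 20906706 reads were counted on genes per mouse (median 18545208.5). Arntl, the gene for BMAL1, ranged from a mean of 2.73 ± 0.825 CPM (SD, n = 5) at ZT8 to 48.4 ± 10.2 CPM at ZT0 in control mice, and from 17.4 ± 2.01 CPM at ZT12 to 24.4 ± 1.57 CPM at ZT0 in cKOt mice. Its counts cover the whole gene, including any part that the deletion leaves. The study's supplement marks 1 of the cKOt mice at ZT16 for removal, and it was kept here as labelled.

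Of the 10 genes, 7 lie on chromosome 17 of GRCm38, and Cd74, Ciita, and B2m on chromosomes 18, 16, and 2, respectively. H2-Aa lies at chr17:34282744-34287823, H2-Ab1 at chr17:34257689-34269419, H2-Eb1 at chr17:34305867-34316674, H2-DMa at chr17:34119541-34139101, H2-DMb1 at chr17:34153072-34160230, H2-K1 at chr17:33996017-34000347, and H2-D1 at chr17:35262730-35267499. Promoter windows, of 250 bases before and 50 bases after the start, were held for 7 of the 10 in the RefSeq table used (GRCm38.p6), and both strands of these windows were searched for motifs. H2-Ab1, Ciita, and Cd74 were not among the 7. The start is that of the RefSeq transcript, which for H2-DMa, H2-DMb1, H2-K1, H2-D1, and B2m lies inside the gene as GENCODE gives it above, so that the bases before it overlap that gene. H2-DMa and H2-K1 have 2 starts each in the table, and the other start of H2-K1 is that of the GENCODE gene. The last 150 bases before the start are shown for the 6 genes whose window held a motif there, since class II and class I promoters are known for a shared Y box and X box that the factors around Ciita and its relatives use. Capitals mark the Y box (CCAAT, or ATTGG when it is on the other strand), the X box core AGCAAC, and the interferon response core GAAANNGAA.
H2-Aa, chr17:34287824-34287973, minus strand: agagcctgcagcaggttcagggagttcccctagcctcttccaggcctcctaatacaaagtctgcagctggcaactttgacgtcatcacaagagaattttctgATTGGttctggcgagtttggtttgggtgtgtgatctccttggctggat
H2-Eb1, chr17:34305717-34305866, plus strand: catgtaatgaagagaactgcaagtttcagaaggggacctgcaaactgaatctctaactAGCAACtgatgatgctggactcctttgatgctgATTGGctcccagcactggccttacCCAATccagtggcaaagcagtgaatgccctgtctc
H2-DMb1, chr17:34153041-34153190, plus strand: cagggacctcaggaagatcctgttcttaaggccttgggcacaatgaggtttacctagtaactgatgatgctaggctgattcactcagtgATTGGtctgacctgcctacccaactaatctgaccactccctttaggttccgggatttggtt
H2-K1, chr17:34000334-34000483, minus strand: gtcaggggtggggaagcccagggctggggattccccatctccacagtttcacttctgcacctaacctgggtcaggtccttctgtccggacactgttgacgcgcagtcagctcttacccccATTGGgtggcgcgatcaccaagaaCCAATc
H2-D1, chr17:35262944-35263093, plus strand: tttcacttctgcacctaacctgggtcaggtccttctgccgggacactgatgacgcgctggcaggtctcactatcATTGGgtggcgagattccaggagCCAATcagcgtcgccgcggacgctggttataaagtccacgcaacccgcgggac
B2m, chr2:122147537-122147686, plus strand: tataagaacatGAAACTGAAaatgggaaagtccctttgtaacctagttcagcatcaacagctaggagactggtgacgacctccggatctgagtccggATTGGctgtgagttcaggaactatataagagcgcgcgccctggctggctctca
With positions counted from the start, the Y box of H2-Aa began at -48, that of H2-DMb1 at -61, and that of B2m at -53. H2-Eb1, H2-K1, and H2-D1 held 2 copies each, beginning at -59 and -35, at -30 and -6, and at -76 and -53. The window shown for H2-K1 is that of 1 start, and from its other start the same copies began at -16 and after the start. H2-DMa held a Y box at -198 from 1 of its 2 starts, outside the last 150 bases. Of all 32851 windows in the table, 37.4% held a Y box. The exact letters of the X box core stood in H2-Eb1 alone, at -92 (14.8% of all windows), and the interferon response core in B2m alone, at -139 (8.56% of all windows). X boxes with other letters were not searched for, so the other windows are not shown to lack an X box. None of the windows of the 7 genes held the E-box CACGTG that BMAL1 and its partners bind (7.15% of all) or the D-box TTATGNAA (3.38%), which says only that these letters are not in these windows.

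The genes were measured at very different levels. Per kilobase of annotated exon, the mean in control mice was 244.4 ± 33.0 CPM for B2m, 67.2 ± 10.8 for Cd74, 51.9 ± 5.91 for H2-D1, 42.5 ± 5.35 for H2-K1, 22.5 ± 3.47 for H2-Eb1, 19.0 ± 2.38 for H2-Aa, 16.9 ± 2.90 for H2-Ab1, 6.36 ± 0.965 for H2-DMb1, 1.75 ± 0.305 for H2-DMa, and 0.578 ± 0.136 for Ciita (SD, n = 30). The class I light chain thus had the highest level and the transactivator the lowest. The ranges of neighbours in this order overlapped for Cd74 and H2-D1, H2-D1 and H2-K1, H2-Eb1 and H2-Aa, and H2-Aa and H2-Ab1, and the other neighbours did not overlap. Within single control mice, Cd74 exceeded H2-D1 in 30 of 30 and H2-Aa exceeded H2-Ab1 in 27 of 30, whereas among cKOt mice Cd74 exceeded H2-D1 in 22 of 30. Ciita was counted with 46 to 139 reads per mouse and H2-DMa with 39 to 156, so that their values are the least precise. Of windows of 150 bases along the annotated transcripts, 4.71% in H2-DMb1 were identical to H2-DMb2 and 1.35% in H2-D1 to H2-Q1, and none in the other 8 genes was found in another gene.

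**Figure D1:**
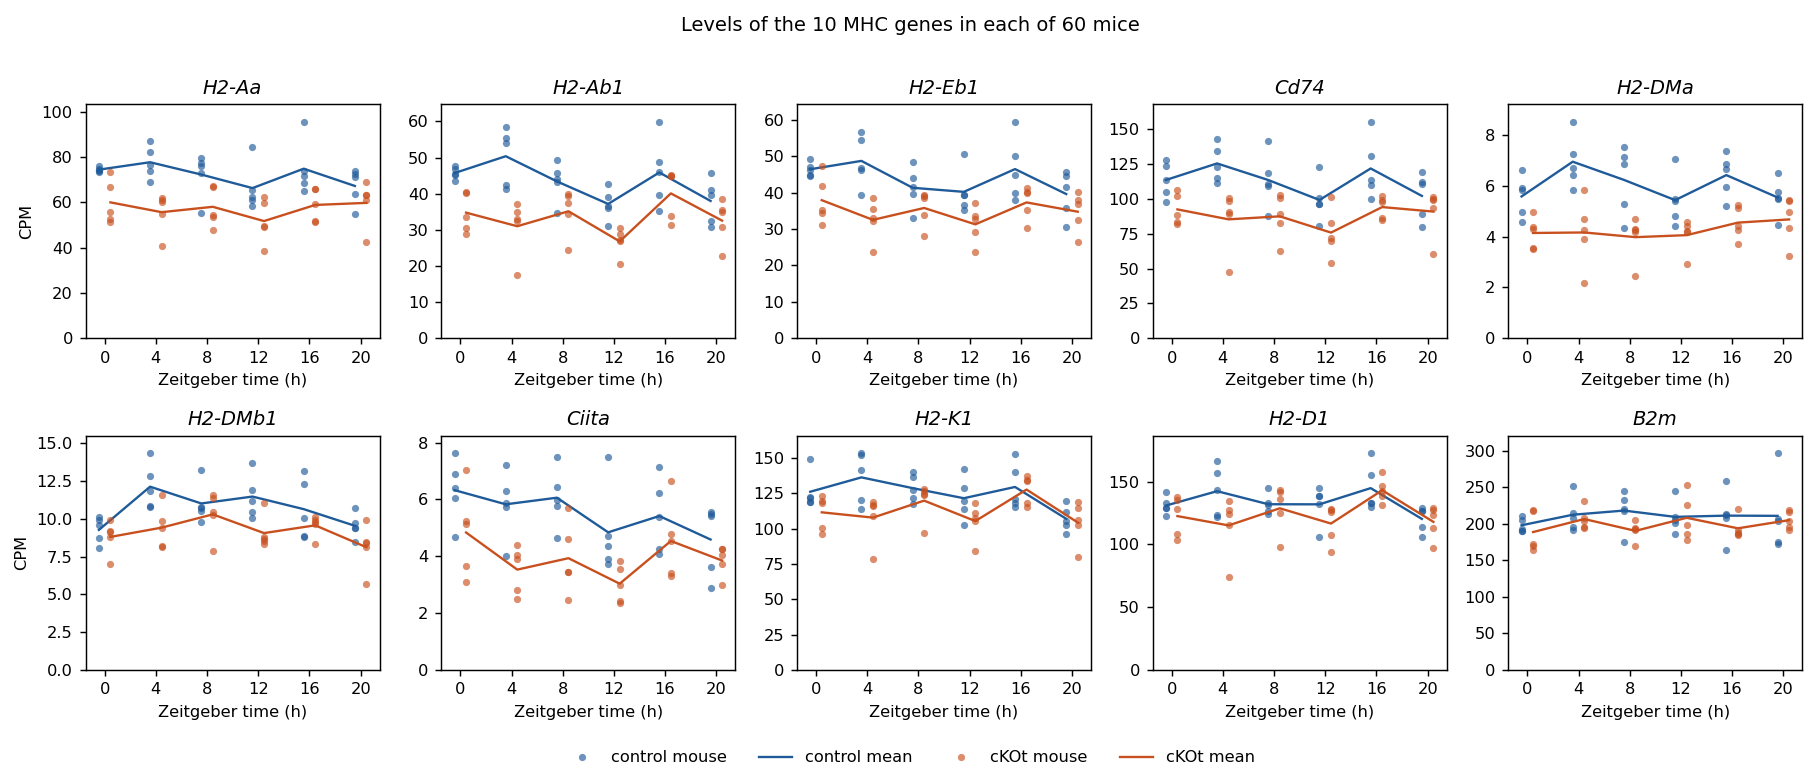
CPM (vertical axes, from 0) of each gene in each mouse against zeitgeber time in hours, with control mice in blue, cKOt mice in orange, and lines through the mean of 5 mice. The cKOt means lie below the control means at all 6 time points for the class II genes, most widely for H2-DMa and Ciita, and close to them for H2-D1 and B2m.

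The first question was whether the 10 transcripts differed in mean expression between cKOt and control mice over the 6 time points. All 10 were lower in cKOt mice (edgeR quasi-likelihood test, adjusted p below 0.05), where 23.2% of all genes were called lower and 26.8% higher. Since the 10 were chosen with earlier results of these data known, this count is a description. For 9 of them the call held under all 16 alternative settings, and for B2m (adjusted p = 0.0445) it was lost under 10 of 16. The median log2 difference of the 10 was -0.315, beside 0.01 over all retained genes. The 5 pan-leukocyte markers were lower as well (median log2 difference -0.25), and their part in the result was not tested. In bulk tissue, fewer cells of a type and less RNA per cell cannot be told apart. Without 4 cKOt mice with low H2-Ab1, which are described last, 9 of the 10 were called. Among class II genes, H2-Eb1 fell by 19.3%, H2-Ab1 fell by 22.3%, and H2-DMa fell by 28.2%, with H2-Aa, Cd74, and Ciita between the first and the last, whereas H2-DMb1 fell by 12.9%. The class I genes fell less, as H2-K1 fell by 8.55% and B2m fell by 5.67%. The factors that scale library totals (TMM) ran from 0.908 to 1.016 in control mice and from 0.989 to 1.069 in cKOt mice. All 16 settings kept this scaling or that of DESeq2, so differences as small as those of the class I genes depend on it. Their values without it were not tested.

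Among the class II chains, H2-Aa (the alpha chain of I-A) ranged from 54.9 to 95.6 CPM in control mice (median 73.6) and from 38.3 to 73.5 CPM in cKOt mice (median 59.4). Its log2 difference was -0.32 ± 0.05 (SE, adjusted p = 5.021e-08). H2-Ab1, the beta chain of I-A, ranged from 30.9 to 59.9 CPM in control mice (median 43.3) and from 17.4 to 45.2 CPM in cKOt mice (median 33.7), with a log2 difference of -0.36 ± 0.05 (adjusted p = 1.803e-08). H2-Eb1, the beta chain of I-E, ranged from 30.5 to 59.4 CPM (median 44.6) against 23.6 to 47.3 CPM (median 35.1), with a log2 difference of -0.31 ± 0.04 (adjusted p = 3.731e-08). Over the 30 mice of each genotype the ranges overlapped for all 3 chains, with no cKOt mouse above the control median of H2-Aa, and the difference of each exceeded the SD of either genotype. The alpha partner of H2-Eb1, which C57BL/6 mice do not make, was listed as H2-Ea-ps with 0 counts in all 60 mice.

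Cd74, the invariant chain, had the highest level of the class II genes. It ranged from 79.97 to 155.5 CPM in control mice (median 112.1) and from 47.8 to 106.5 CPM in cKOt mice (median 90.1). No cKOt mouse reached the control median. The log2 difference was -0.34 ± 0.05 (adjusted p = 9.655e-09), close to those of the chains that it escorts.

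The pair of H2-DM chains, the peptide exchangers, was lower to unlike degrees. H2-DMa ranged from 4.34 to 8.51 CPM in control mice (median 5.87) and from 2.18 to 5.81 CPM in cKOt mice (median 4.29), with a log2 difference of -0.48 ± 0.06 (adjusted p = 2.37e-09). No cKOt mouse reached the control median here either. H2-DMb1 ranged from 8.04 to 14.3 CPM (median 10.5) against 5.67 to 11.6 CPM (median 9.17), with a log2 difference of -0.20 ± 0.05 (adjusted p = 0.0002359). The 95% intervals of the log2 differences, -0.60 to -0.36 for H2-DMa and -0.29 to -0.11 for H2-DMb1, did not overlap, and the difference between the genes was not tested.

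Ciita, the class II transactivator, ranged from 2.89 to 7.62 CPM in control mice (median 5.64) and from 2.36 to 7.02 CPM in cKOt mice (median 3.77). Its log2 difference of -0.47 ± 0.09 (adjusted p = 1.111e-05) had the widest interval of the 10, from -0.64 to -0.30, which held the differences of H2-Aa, H2-Ab1, H2-Eb1, and Cd74. Its highest cKOt mouse, at 7.02 CPM, lay above the control median.

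Of the class I genes, the heavy chain H2-K1 ranged from 95.99 to 153.5 CPM in control mice (median 120.7) and from 78.7 to 137.2 CPM in cKOt mice (median 116.4), with a log2 difference of -0.13 ± 0.03 (adjusted p = 0.0004315). The heavy chain H2-D1 ranged from 105.7 to 172.8 CPM (median 131.7) against 73.9 to 157.5 CPM (median 127.7), with a log2 difference of -0.09 ± 0.03 (adjusted p = 0.003439). B2m, the light chain, ranged from 163.8 to 296.9 CPM (median 207.6) against 164.9 to 253.9 CPM (median 195.2), with a log2 difference of -0.08 ± 0.04 (adjusted p = 0.0445). For H2-K1, H2-D1, and B2m the difference of the means was smaller than the SD of either genotype, and the call of B2m was lost under 10 of 16 alternative settings, with adjusted p from 0.02 to 0.38 over all of them. The 95% intervals of the 3 class I genes, from -0.19 to -0.01 at their extremes, did not overlap those of H2-Aa, H2-Ab1, H2-Eb1, Cd74, H2-DMa, or Ciita.

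**Figure D2:**
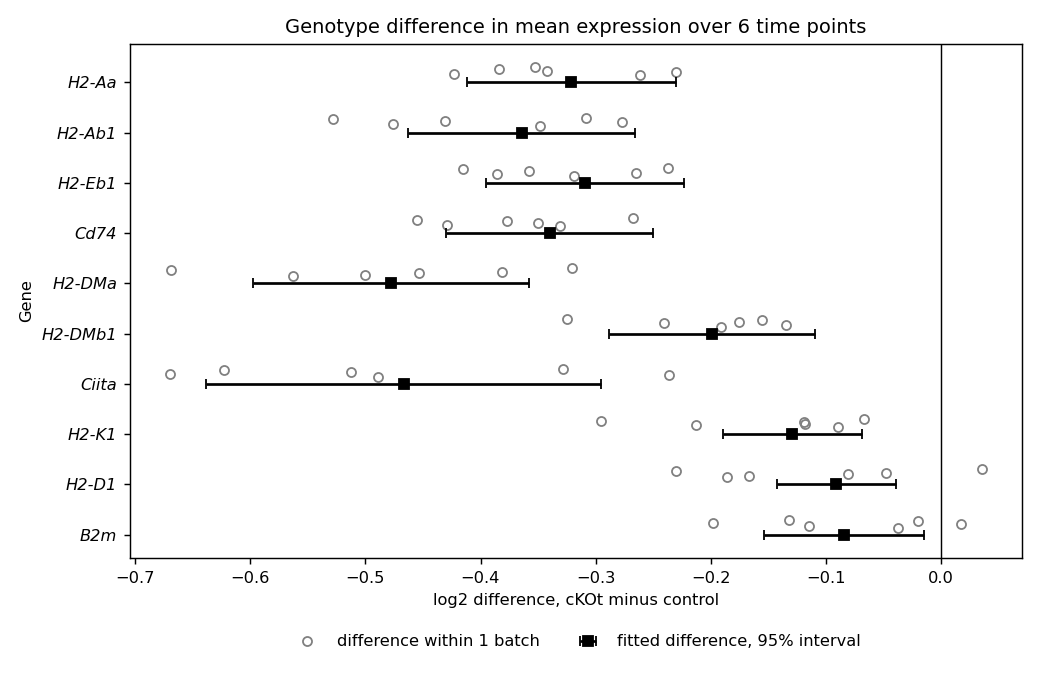
Log2 difference in mean expression, cKOt minus control (horizontal axis), of each gene. Squares with bars are the fitted differences with their 95% intervals, and open circles are the differences within each of 6 batches. All squares lie below 0, and only H2-D1 and B2m have a batch above 0.

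The supplement of the study lists 6 batches of 9 to 12 mice, without saying what they were batches of, and both genotypes were in each. Within batches, the difference was below 0 in 6 of 6 for H2-Aa, H2-Ab1, H2-Eb1, Cd74, H2-DMa, H2-DMb1, Ciita, and H2-K1. It was below 0 in 5 of 6 for H2-D1 (from -0.23 to 0.04) and for B2m (from -0.20 to 0.02). The log2 difference of H2-Ab1 within a batch ran from -0.53 to -0.28, that of Cd74 from -0.45 to -0.27, and that of H2-DMa from -0.67 to -0.32.

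The next question was whether the difference depended on the time of day. All 60 differences, of 10 genes at 6 time points, were below 0. At ZT0, 1 of 10 genes was called lower (H2-Ab1), where 5.49% of all genes were. At ZT4 it was 4 of 10 (6.34% of all), at ZT8 5 of 10 (9.29%), at ZT12 6 of 10 (10.8%), and at ZT16 4 of 10 (9.75%). At ZT20 edgeR called 0 of 10 (7.79% of all), although 6 of the 10 had an unadjusted p below 0.05 there, and no other tool was run at single time points. The interaction of genotype and time was called for 0 of 10 genes by edgeR, DESeq2, and limma, where edgeR called 3.08% of all genes, and none of the 10 had an unadjusted p below 0.05 (lowest 0.506). These counts are from single time points with 5 mice of each genotype, and a call at one and not at another does not show that they differ.

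**Figure D3:**
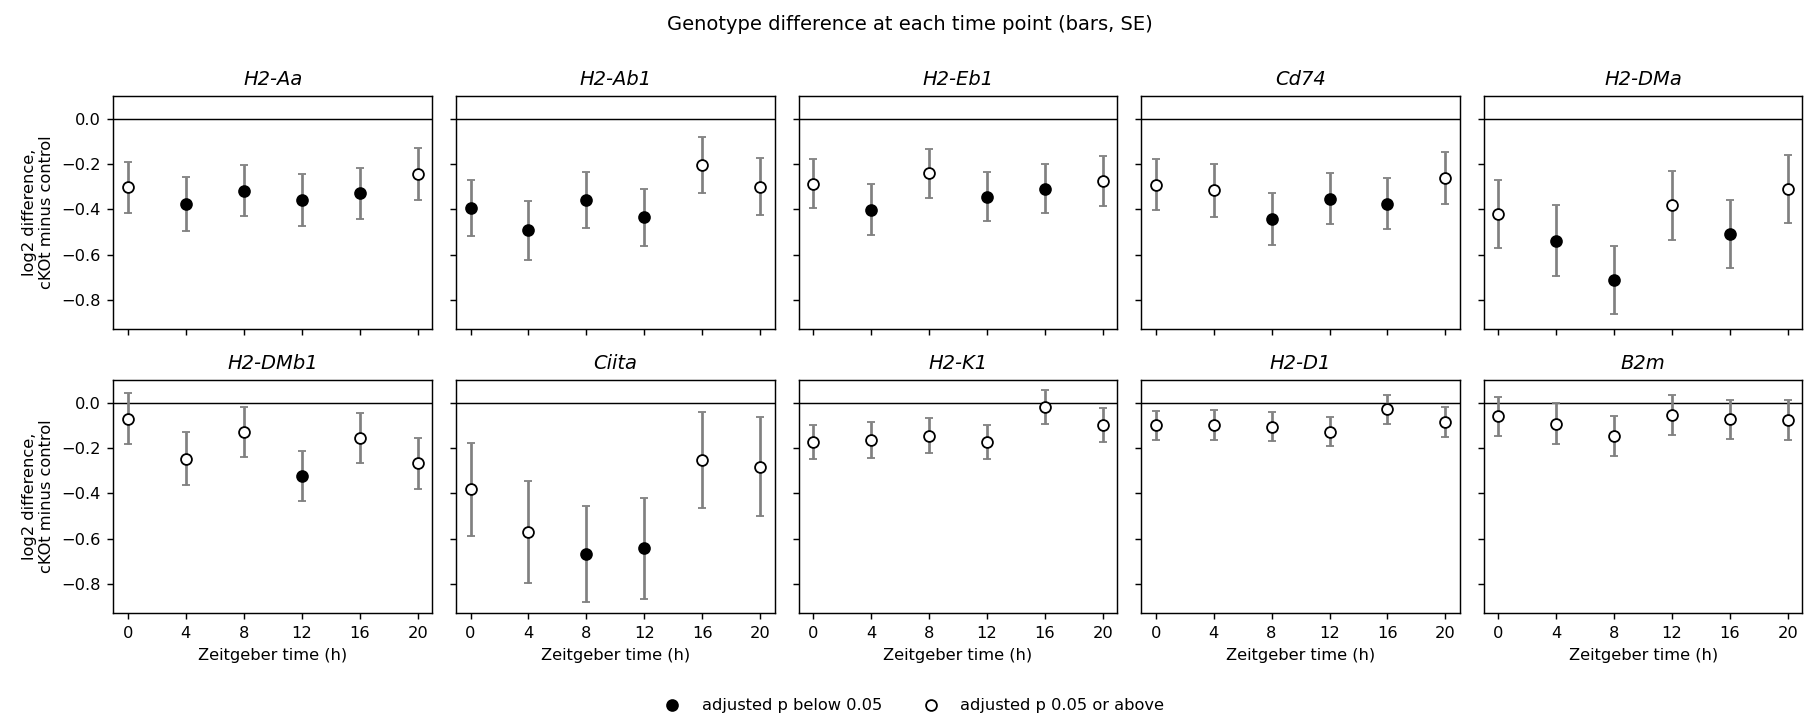
Fitted log2 difference, cKOt minus control, of each gene at each zeitgeber time in hours, with bars for the SE. Filled points passed an adjusted p of 0.05. All points lie below 0, from -0.71 for H2-DMa at ZT8 to -0.02 for H2-K1 at ZT16.

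In 8 of the 60 pairs of gene and time point, all 5 cKOt mice lay below all 5 control mice, where 4.39% of all such pairs did, and the reverse was found in none of the 60. Of these 8 pairs, 5 were at ZT4. There, the control mice had 58.6, 42.4, 54.1, 41.4, and 55.4 CPM of H2-Ab1, and the cKOt mice had 33.1, 37.2, 34.9, 32.3, and 17.4 CPM. The lowest control mouse was above the highest cKOt mouse, and 1 cKOt mouse stood far below the rest. The means of these mice were 50.4 and 31.0 CPM. The fitted log2 difference at ZT4 was -0.49 ± 0.13 (adjusted p = 0.005457), which is smaller in size than that of these means. Log2 differences at single time points were fitted with 2 factors of unwanted variation (RUVs) as covariates, so they can differ from those of the CPM listed. At ZT16 the control mice had 48.6, 39.5, 35.2, 46.0, and 59.9 CPM and the cKOt mice 44.8, 31.4, 45.2, 33.9, and 45.01 CPM, which overlap (log2 difference -0.20 ± 0.12, adjusted p = 0.2588).

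For Cd74, the control mice at ZT4 had 134.8, 115.0, 143.3, 111.7, and 123.2 CPM. The cKOt mice at that time had 98.6, 100.5, 90.6, 89.6, and 47.8 CPM. Although the groups did not overlap, the fitted log2 difference of -0.31 ± 0.12 was not called (adjusted p = 0.06746), whereas at ZT8 it was -0.44 ± 0.11 (adjusted p = 0.002848). At ZT4 the fitted value was smaller in size than the difference of the means, 125.6 and 85.4 CPM. H2-DMa had its lowest adjusted p at ZT8, with 6.84, 5.30, 7.52, 7.13, and 4.34 CPM in control mice and 4.68, 2.44, 4.20, 4.31, and 4.25 CPM in cKOt mice (log2 difference -0.71 ± 0.15, adjusted p = 0.0002998). One control mouse there lay among the cKOt mice. Ciita was called at ZT8 and ZT12, and at ZT12 it had 4.36, 3.91, 4.72, 3.73, and 7.48 CPM in control mice and 2.99, 3.55, 3.82, 2.36, and 2.43 CPM in cKOt mice (log2 difference -0.64 ± 0.22, adjusted p = 0.03062). H2-K1, H2-D1, and B2m were called at no time point, and at ZT16 H2-K1 differed by -0.02 ± 0.08 on the log2 scale (adjusted p = 0.8911).

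The third question was whether the transcripts varied over the day. In control mice, a time effect was called for 1 of 10 genes, H2-DMb1, where 30.6% of all genes were called. In cKOt mice it was called for 0 of 10 by edgeR, DESeq2, and limma, where edgeR called 26.6% of all, and none of the 10 had an unadjusted p below 0.05 (lowest 0.112). With the rhythm models, which compare 24-h cosine fits by their Bayesian information criterion (BIC), 7 genes were assigned model 1 (no rhythm in either genotype), H2-DMb1 was assigned model 4 (the same rhythm in both), and H2-K1 and H2-D1 reached the weight of 0.65 for no model. Over all genes, 37.3% were assigned a rhythm in at least 1 genotype.

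H2-DMb1 was highest in control mice at ZT4, with a mean of 12.1 ± 1.5 CPM (SD, n = 5), and lowest at ZT0, with 9.27 ± 0.869 CPM (time effect, adjusted p = 0.03856). In cKOt mice its mean ran from 8.13 ± 1.53 CPM at ZT20 to 10.3 ± 1.48 CPM at ZT8 (adjusted p = 0.2297). The weight of model 4, which has 1 rhythm for both genotypes, was 0.956. From a fit with a separate rhythm for each genotype, which had a weight of 0.0196, the peaks were at ZT9.23 and ZT8.24 in control and cKOt mice, respectively. The peak-to-trough amplitudes of that fit were 0.30 and 0.27 on the log2 scale. The interaction for H2-DMb1 was not called (adjusted p = 0.8576), and the time effect in control mice was lost under 6 of 16 settings. Cd74 had the weight of 0.787 for model 1 and B2m 0.939, and the amplitudes of B2m from separate rhythms were 0.06 and 0.03 on the log2 scale.

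Other genes of the pathways were taken from lists written with earlier results of these data known. Of 15 further genes of the class II pathway that passed the filter, 6 were lower, 5 higher, and 4 not called, with a median log2 difference of 0.00. The lower ones included H2-Ob, the beta chain of the DM inhibitor H2-O (1.90 ± 0.546 CPM against 1.36 ± 0.354 CPM in control and cKOt mice, SD, n = 30, log2 difference -0.46 ± 0.10, adjusted p = 6.629e-05), and H2-DMb2, the second DM beta chain (0.674 ± 0.308 and 0.476 ± 0.176 CPM, log2 difference -0.44 ± 0.14, adjusted p = 0.007465). H2-DMb2 shares windows with H2-DMb1, as given above. The higher ones were cathepsin L (Ctsl), Rfxank, and the Y box factors Nfya, Nfyb, and Nfyc, by at most 0.16 on the log2 scale. The X box factor Rfx5 was at 21.5 ± 3.12 and 21.3 ± 2.11 CPM (adjusted p = 0.9684).

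In the class I pathway, 6 of 15 genes were lower, 1 higher (Psme1), and 8 not called, with a median log2 difference of -0.07. None of these reached a log2 difference of 0.3 in size. Tap1, a subunit of the peptide transporter, was at 7.74 ± 1.70 and 7.69 ± 1.5 CPM (adjusted p = 0.7582), and Nlrc5, the transactivator of class I genes, at 7.09 ± 1.79 and 6.28 ± 1.20 CPM (adjusted p = 0.1041). Of 14 other class I chains, 3 were lower, 2 higher, and 9 not called. H2-Bl was lower (0.812 ± 0.318 and 0.429 ± 0.211 CPM, log2 difference -0.88 ± 0.15, adjusted p = 3.045e-06) and H2-Q2 higher (0.761 ± 0.340 and 0.971 ± 0.3 CPM, log2 difference 0.41 ± 0.12, adjusted p = 0.005386). Both were counted with at most 35 reads per mouse. Reads that aligned to several genes were not counted, and how much sequence H2-Bl and H2-Q2 share with other genes was not computed. Of 8 genes of interferon gamma signalling, 3 were lower (Ifngr2, Jak1, and Irf1), 1 higher (Ifngr1), and 4 not called. Ifng itself was at 0 in 41 of 60 mice, with at most 2 reads.

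Of the leukocyte markers, which include those of cells that make class II molecules, many but not all were lower in cKOt mice. Over all genes, 23.2% were called lower. All 5 pan-leukocyte markers were lower, with a median log2 difference of -0.25, and their sum ran from 32.3 to 55.8 CPM in control mice and from 28.4 to 46.3 CPM in cKOt mice. Cd52 and Cd53 had log2 differences of -0.33 ± 0.07 (adjusted p = 0.0001329) and -0.30 ± 0.06 (adjusted p = 0.0001092). Of 10 macrophage markers, 8 were lower and 2 not called (median -0.23). Their sum ran from 85.7 to 151.6 CPM in control and from 87.7 to 131.0 CPM in cKOt mice, and none was at 0 in any mouse. The mannose receptor Mrc1 differed by -0.31 ± 0.05 on the log2 scale (adjusted p = 6.93e-07), whereas Csf1r was at 61.1 ± 7.57 and 59.9 ± 8.15 CPM (adjusted p = 0.8063).

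Of 8 dendritic cell markers, 4 were lower and 4 not called (median -0.25), with sums from 19.6 to 29.3 CPM in control and from 16.8 to 28.7 CPM in cKOt mice. The lectins Clec10a and Cd209a and the receptor Flt3 differed by -0.86 ± 0.12 (adjusted p = 1.839e-08), -0.71 ± 0.13 (adjusted p = 7.558e-06), and -0.48 ± 0.17 (adjusted p = 0.01535) on the log2 scale. Zbtb46, which made up 14.1 of the mean of 24.6 CPM of these markers in control mice, was not called (adjusted p = 0.05785). Clec9a, Xcr1, and Batf3 were not called either (adjusted p = 0.08035, 0.2159, and 0.5818), and Batf3 differed by 0.11 ± 0.15. Of 7 T cell markers that passed the filter, 4 were lower, namely Cd8a (-0.63 ± 0.11, adjusted p = 3.8e-06), Cd3g (-0.51 ± 0.17, adjusted p = 0.009366), Cd3e (-0.48 ± 0.17, adjusted p = 0.01544), and Cd4 (-0.43 ± 0.14, adjusted p = 0.006937). Trac, Trbc2, and Lck were not called (adjusted p = 0.9943, 0.1265, and 0.05987). The T cell markers summed to 4.07 to 11.5 CPM in control and 3.39 to 7.52 CPM in cKOt mice. Of 8 B cell markers, only Cd79b passed the filter (-0.39 ± 0.12, adjusted p = 0.007473). The B cell markers summed to 1.10 to 2.84 CPM in control and 0.660 to 2.02 CPM in cKOt mice, and Pax5 was at 0 in 27 of 60 mice.

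**Figure D4:**
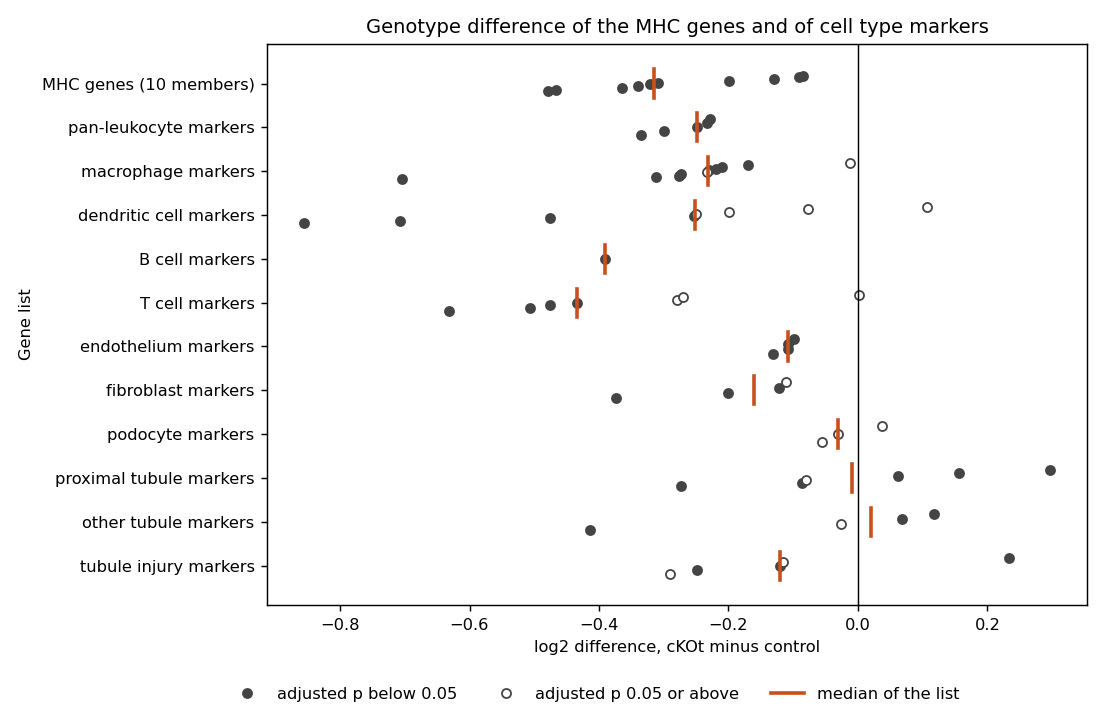
Log2 difference, cKOt minus control, of each gene of the lists (points, filled where adjusted p was below 0.05) with the median of each list (vertical bars). The medians of the MHC genes, pan-leukocyte, macrophage, dendritic cell, B cell, and T cell markers lie between -0.43 and -0.23, and those of podocyte, proximal tubule, and other tubule markers between -0.03 and 0.02.

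Markers of other kidney cells differed less in the median. The 4 endothelium markers were all lower (median -0.11), 3 of 4 fibroblast markers were lower (median -0.16, with Col1a1 at -0.37 ± 0.07, adjusted p = 3.262e-05), and none of 3 podocyte markers was called (median -0.03). Of 6 proximal tubule markers 3 were higher and 2 lower (median -0.01), and of 4 other tubule markers 2 were higher and 1, Umod, lower (-0.41 ± 0.04, adjusted p = 1.242e-13). Of 5 injury markers, 1 was higher (Lcn2) and 2 lower (Vcam1 and Spp1).

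Set against the leukocyte markers in the same mouse, the cKOt mean lay lower for the class II genes and higher for the class I genes. The sum of H2-Aa, H2-Ab1, H2-Eb1, and Cd74 was 6.31 ± 0.569 times that of the 5 pan-leukocyte markers in control mice and 5.92 ± 0.826 times in cKOt mice (SD, n = 30). This difference was smaller than the SD of either genotype. Over the macrophage markers the class II sum was 2.23 ± 0.210 and 1.98 ± 0.253 times. Csf1r, which was not called, made up 61.1 of the mean of 122.3 CPM of the macrophage markers in control mice, so that this ratio leans on 1 gene. For the sum of H2-K1, H2-D1, and B2m, the ratios to pan-leukocyte markers were 10.9 ± 0.976 and 12.2 ± 1.42, and those to macrophage markers 3.86 ± 0.380 and 4.06 ± 0.288, a difference smaller than the SD of either genotype. These ratios of sums over chosen genes are given as a description, without a test.

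Across the 60 mice, after removal of each group's mean, the class II genes varied together with macrophage, dendritic cell, and T cell markers and with the class I genes. These correlations are descriptions without a test. The points share libraries, depth, and batches. The mean log2 level of H2-Aa, H2-Ab1, H2-Eb1, and Cd74 had a Pearson's r of 0.831 (Spearman's rho 0.814) with macrophage markers, 0.627 (0.677) with dendritic cell markers, 0.657 (0.678) with T cell markers, and -0.06 (-0.01) with the B cell marker Cd79b. With Ciita it was 0.488 (0.485), and with the mean of H2-K1, H2-D1, and B2m 0.918 (0.881). Without the 2 mice farthest from the median on the other measure, r was 0.81, 0.598, 0.611, -0.01, 0.448, and 0.895 in the same order. Within batches of 9 to 12 mice, r ran from 0.736 to 0.895 for macrophage markers, from 0.839 to 0.983 for the class I genes, and from 0.463 to 0.859 for Ciita. The range within batches was wider for T cell markers (0.331 to 0.868) and dendritic cell markers (0.291 to 0.864). Cd79b is a single gene with at most 19 reads in any mouse, so its r says little about B cells.

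**Figure D5:**
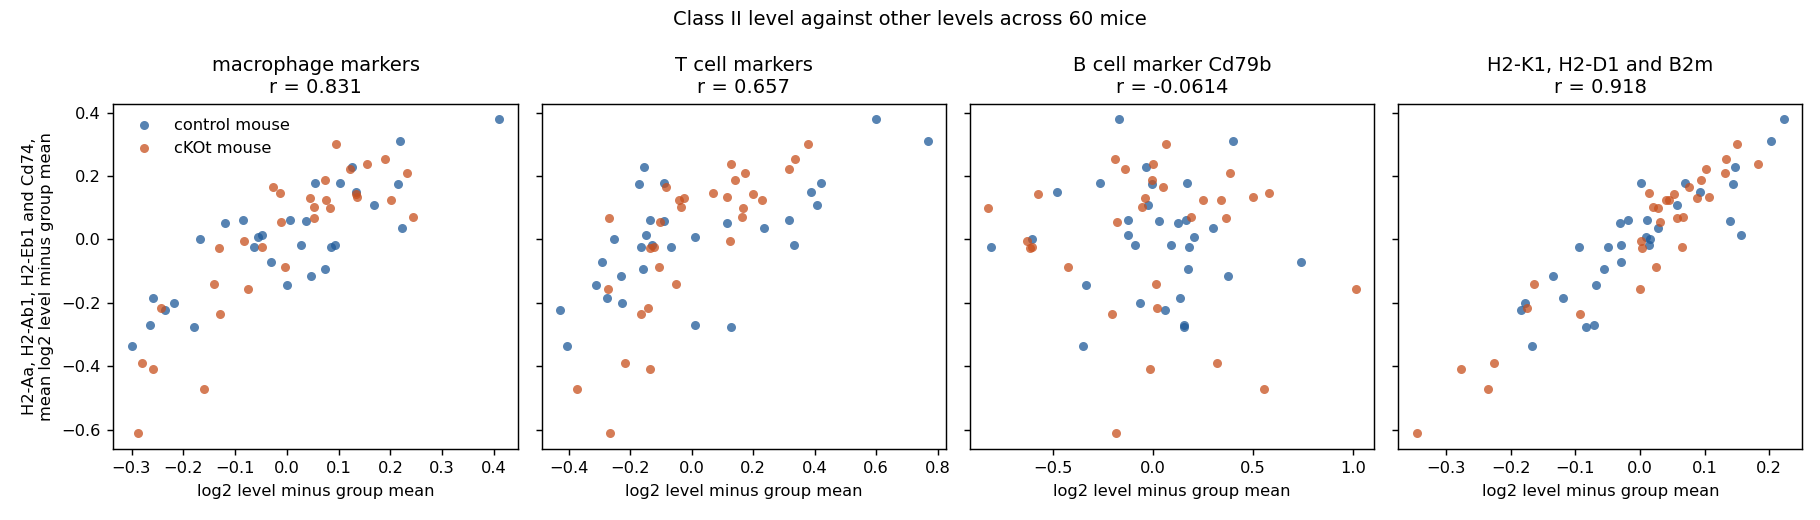
Mean log2 level of H2-Aa, H2-Ab1, H2-Eb1, and Cd74 minus the group mean (vertical axis) against the same measure of other genes (horizontal axes), 1 point per mouse. The points follow a rising band for macrophage markers (r = 0.831) and for the class I genes (r = 0.918), and none for Cd79b (r = -0.06). Cd79b had at most 19 reads in any mouse, so its panel says little about B cells.

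Between single genes, r over the 60 mice was 0.91 for H2-Ab1 and H2-Eb1, 0.895 for H2-Ab1 and Cd74, and 0.877 for H2-K1 and H2-D1. B2m stood apart from the heavy chains, with r of 0.205 with H2-K1 and 0.00407 with H2-D1. H2-K1 and H2-D1 were closer to Cd74 (0.883 and 0.814) than to B2m. The 5 other genes most like the 4 class II genes were C1qb (r = 0.841), Laptm5 (0.826), Cyth4 (0.792), Tap1 (0.762), and Itgb2 (0.753). Those most like H2-K1, H2-D1, and B2m were H2-Q4 (0.77), C1qb (0.769), Tap1 (0.766), Psmb8 (0.721), and Laptm5 (0.721). Of these 7 genes, C1qb, Laptm5, Cyth4, and Itgb2 were lower in cKOt mice, with log2 differences from -0.23 to -0.21, and Tap1, H2-Q4, and Psmb8 were not called (adjusted p = 0.7582, 0.08989, and 0.1346).

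Levels below 25 CPM of H2-Ab1 were found in 4 cKOt mice and in 0 control mice, and the 4 were 1 mouse each at ZT4, ZT8, ZT12, and ZT20. The mouse at ZT4 had 502.8 CPM over the 10 genes, against 657.0 to 715.7 CPM in the other cKOt mice of that time. Its macrophage markers summed to 88.8 CPM against 107.9 to 115.5 CPM, whereas its pan-leukocyte markers (34.6 CPM, against 32.7 to 37.1 CPM) and its dendritic cell markers (22.4 CPM, against 16.8 to 19.4 CPM) did not lie below the others. Its T cell markers (4.19 CPM, against 4.62 to 6.56 CPM) and B cell markers (1.01 CPM, against 1.36 to 2.00 CPM) lay below them, and its tubule injury markers above (703.4 CPM, against 486.0 to 552.3 CPM). Macrophage markers were below those of the other cKOt mice of the same time in the low mice at ZT8 (87.7 CPM, against 105.5 to 131.0 CPM) and ZT12 (95.95 CPM, against 100.1 to 109.9 CPM), and among them at ZT20 (103.5 CPM, against 97.8 to 114.1 CPM). T cell markers were below at ZT8 (3.67 CPM, against 3.81 to 5.33 CPM) and ZT20 (3.81 CPM, against 4.89 to 7.05 CPM), and among the others at ZT12 (4.13 CPM, against 3.39 to 5.81 CPM). B cell markers lay below the others at ZT4 alone, and pan-leukocyte and dendritic cell markers lay below them in none of the 4 mice. Tubule injury markers lay above the others at ZT8 too (654.8 CPM, against 505.7 to 605.3 CPM) and among them at ZT12 and ZT20. Their sum is mostly Spp1 (593.7 of 609.2 CPM in control mice). The libraries of the low mice at ZT4, ZT8, ZT12, and ZT20 had 7.87%, 7.76%, 7.85%, and 7.31% of reads outside genes. The median of all mice was 6.33%, the highest control mouse had 6.72%, and a cKOt mouse at ZT16 that was not low had 7.76%. Their reads ambiguous between genes made up 0.71%, 0.77%, 0.75%, and 0.77% (median of all mice 0.84%). The part of these markers and of these shares of reads in the low values was not tested. Without these 4 mice, which were chosen after their values were seen, 9 of the 10 genes remained called, all but B2m (log2 difference -0.04 ± 0.03, adjusted p = 0.3779), and the log2 differences of H2-Ab1 and Cd74 were -0.31 and -0.29. Without the mouse at ZT4 alone, B2m was likewise lost (adjusted p = 0.08195).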

How the data were processed

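Kidney RNA of 60 mice was sequenced by the authors, who made stranded poly(A) libraries, aligned reads with STAR (version 2.5.3a) to GRCm38, and counted uniquely aligned reads per gene with HTSeq (version 0.9.1). The deposited values are raw counts. Reads that aligned to several places (24.3% to 29.4%) were not counted, which lowers counts of genes that share sequence with others. Per the study's methods, the 5 mice of each group were selected from 6 by RNA integrity and distance from the other replicates. Symbols came from GENCODE M21.

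Counts were fitted with edgeR (version 4.0.16): TMM library sizes, 12 groups, 2 RUVs factors as covariates, quasi-likelihood F tests, and Benjamini-Hochberg adjustment over 15546 genes at a threshold of 0.05. Log2 CPM used a prior count of 2. Rhythm models (those of dryR, written anew) used a period of 24 h and a BIC weight of 0.65. The fits were tested on simulated data. Alternatives used DESeq2 (version 1.42.0), limma (version 3.58.1), other filters and covariates, and fewer mice. Named list genes passed the threshold with a log2 difference of at least 0.3 in size, at most 6 a list. The members and lists were chosen with earlier results of these data known. Of the 120 pairs of mice within a group, none had identical counts. Replicate numbers did not pair the mice. P values measure the spread between mice of a group that remains after the 2 RUVs factors, which are themselves estimated from that spread. For H2-D1 the SE was 0.0264 with these factors and 0.0458 without them.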

Additional observations from a re-analysis of the deposited data

Results flagged for a closer look

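Of 120 combinations of gene and group, 18 held a mouse whose gap to its nearest neighbour exceeded Dixon's critical value of 0.71 for 5 mice, where chance flags about 1 in 20. The 18 came from 12 mice, so they are not independent of each other. Of the 9 low values, 8 were in cKOt mice, and of the 9 high values, 7 were in control mice.

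Replicate 5 of cKOt mice at ZT4 was lowest for H2-Ab1 (17.4 CPM, next 32.3 CPM), Cd74 (47.8 CPM, next 89.6 CPM), and H2-K1 (78.7 CPM, next 109.0 CPM). Replicate 2 of cKOt mice at ZT8 was lowest for H2-DMa (2.44 CPM) and H2-K1 (96.7 CPM). Other low values were Cd74 in replicate 3 of cKOt mice at ZT20 (60.7 CPM), H2-DMa in replicate 5 at ZT12 (2.91 CPM), H2-DMb1 in replicate 4 at ZT16 (8.36 CPM), which is the mouse that the supplement marks for removal, and H2-Aa in replicate 5 of control mice at ZT8 (55.5 CPM).

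Replicate 5 of control mice at ZT12 was highest for H2-Aa (84.5 CPM), H2-Eb1 (50.7 CPM), and Ciita (7.48 CPM). Other high values in control mice were H2-Aa at ZT16 (95.6 CPM), H2-DMb1 at ZT8 (13.2 CPM), H2-K1 at ZT0 (149.5 CPM), and B2m at ZT20 (296.9 CPM). In cKOt mice they were H2-DMb1 in replicate 3 at ZT12 (11.0 CPM) and B2m in replicate 4 at ZT16 (220.6 CPM).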

How the results depend on the processing

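Of the 10 genotype differences, 9 kept their direction and call under all 16 alternatives: DESeq2 size factors or test, limma-trend, 2 filters, no RUVs factors, batch in their place, the replicate block, without the marked mouse, without each replicate number, and, chosen after the data were seen, without 1 or 4 low cKOt mice. The log2 difference of H2-D1 ran from -0.11 to -0.07 (adjusted p at most 0.048). B2m stayed below 0 throughout (-0.10 to -0.04) but was not called by limma-trend (adjusted p = 0.05018), with no filter (0.05525), without RUVs factors (0.1448), with batch in their place (0.09925), without replicate 2, 3, 4, or 5 in turn (0.0871, 0.06094, 0.105, and 0.1459), or without the low cKOt mice. The count of members called was thus 9 to 10. All 16 kept a TMM or DESeq2 scaling of library totals. All genes called numbered 6380 without RUVs factors and 7778 with them. The interaction and the time effect in cKOt mice were called for 0 members in every setting.

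The time effect in control mice was called for 0 members with no filter, without RUVs factors, and with batch in their place (which also removes those factors), and for 0 to 1 when a replicate number was left out, being lost without replicate 1, 3, or 4. The rhythm of H2-DMb1 was assigned under every setting but 1, and members with a rhythm numbered 0 without replicate 3 and 1 otherwise. The cause of these changes was not tested.

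Residuals of mice with the same replicate number did not correlate (mean 0.00433 over 330 pairs), and with the replicate block 10 members and 7734 genes were called. No mouse is matched to another by its number. Ciita and H2-DMa, with 39 to 156 reads per mouse, are limited most by depth. The deposited mice had been selected, so spreads may be smaller than in unselected mice.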
